A study of Mus musculus with 14 samples.

Results

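The genotype difference in the injured hemisphere was read from the 7 ipsilateral (IL) libraries of the series, 3 from *Nhe1* cKO and 4 from Ctrl mice, out of 14 libraries in all. They were chosen by the table columns labelled as ipsilateral, and no measured value entered the choice. The study asked how loss of the sodium-hydrogen exchanger NHE1 in microglia changes the response of the brain to traumatic brain injury (TBI). CD11b+ cells, that is microglia and other myeloid cells, were sorted with magnetic beads from each hemisphere 3 days after the impact, and Smart Seq v4 libraries of their RNA were sequenced. Ctrl mice carried Cx3cr1-CreER+/- and cKO mice carried Cx3cr1-CreER+/- with Nhe1flox/flox, all on C57BL/6 and 8 to 12 weeks old by the labels. All of them received tamoxifen and all were injured, so that the Cre driver, the drug and the injury are shared by the groups. By design the Ctrl mice differ from the cKO mice in the floxed alleles. Any other difference between Ctrl and cKO mice, as of breeding line or of other loci, cannot be told apart from the loss of NHE1 in these libraries. By the description of the study the mice sequenced were male and the injury was a controlled cortical impact. The study also describes a wait after tamoxifen, meant to clear the drug and to let Cx3cr1-positive blood monocytes be renewed. Cx3cr1 is active in microglia, border macrophages and monocytes alike. The contralateral (CL) hemispheres, with 3 cKO and 4 Ctrl libraries, were used for comparison, and 6 of the 8 mice gave both hemispheres, where cKO IL mouse 784 and cKO CL mouse 788 are counted as different mice because their numbers differ in the labels.

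NHE1 exchanges intracellular protons for extracellular sodium and is a main route of acid extrusion in activated microglia, where the NADPH oxidase produces protons during the respiratory burst. Microglia are the resident macrophages of the brain, and after injury they lower some homeostatic genes and raise inflammatory, lysosomal and interferon-stimulated genes. Border macrophages, infiltrating monocytes and neutrophils carry CD11b as well, so that a CD11b sort can hold them.

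Reads assigned to genes ranged from 12.2 to 38.3 M per IL library (M, 1e+06 reads), with a median of 34.2 M, and the library of Ctrl mouse 3546 was the smallest. Values are reads per 1e+06 reads (CPM), and log2 fold changes, with their standard errors (SE), are differences of log2(CPM + 1) after scaling, which makes changes of genes near or below 1 CPM smaller. A gene was called when limma gave a Benjamini-Hochberg adjusted p at or below 0.05 over all genes tested and the fold change was at least 1.2. Replicates are separate mice. The cells expressed the defining genes of microglia, with *P2ry12* at 1597 ± 181 CPM in Ctrl IL (SD, n = 4) against 1758 ± 108 CPM in cKO IL (SD, n = 3), and *Tmem119* at 1670.4 ± 411 and 1521 ± 207 CPM.

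The test covered 16873 genes in IL, of which 111 (0.658%) were called, 60 higher and 51 lower in cKO. Of all genes tested, 859 (5.09%) were higher and 647 (3.83%) lower at an unadjusted p below 0.05. The 3 cKO libraries were all above or all below the 4 Ctrl libraries in 1744 genes (10.3%), and in 111 of the 111 called genes. The median log2 fold change over all genes tested was 0.01, with quartiles at -0.13 and 0.17, a centre that the scaling of the libraries sets near 0. Most of the called genes changed by large factors. The fold change was at least 2 in 98 of them, at least 4 in 33 and at least 8 in 13. A mean of at least 100 CPM in a genotype was reached by 26 of them, and 3 had a mean below 1 CPM in both. Of the 111, 15 were below the filter on low values in every Ctrl IL library and 2 in every cKO IL library. Such genes entered the test only through the genotype where they were high, and their calls are no separate support. By annotation, 92 were protein-coding (0.668% of 13780 tested), 12 were pseudogenes (0.808% of 1485) and 7 were other noncoding genes (0.435% of 1608). Leaving out the IL library of Ctrl mouse 3546 raised the count to 280 genes, which held all 111. Leaving out that of cKO mouse 784 or 791 lowered it to 24 and 30 genes, or to 46 and 48 when the filter on low values was relaxed from 3 to 2 libraries.

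**Figure D1:**
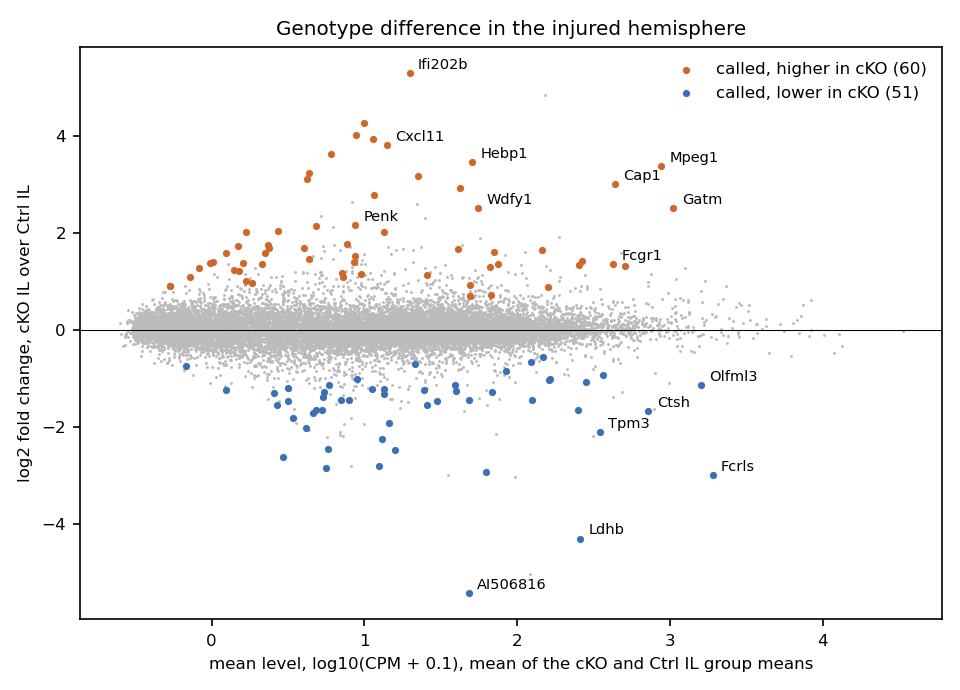
Log2 fold change of cKO IL over Ctrl IL (y axis) against the mean level as log10(CPM + 0.1) (x axis), with each gene tested as a point and called genes in colour. The cloud of genes is centred at 0.01. The 111 called genes lie at low and at high levels, and 98 of them changed by a fold of at least 2. Distance from the centre does not part them from the rest, since *Hfe* was called at -0.56 and *Spint1* was not called at -5.02.

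Among the called genes with the largest difference in CPM, *Gatm*, *Mpeg1* and *Cap1* were higher in cKO. *Gatm* (glycine amidinotransferase, which makes the precursor of creatine; ENSMUSG00000027199) was at 302, 307, 298 and 302 CPM in the Ctrl IL libraries and 2134, 2193 and 1079 CPM in cKO IL. It was 5.97 times as high in cKO by the group means (log2 fold change 2.52 ± 0.28 SE, limma adjusted p = 0.00544), and the cKO mouse with the lowest value was 3592. *Mpeg1* (perforin-2, a pore-forming protein that macrophages direct at engulfed bacteria; ENSMUSG00000046805) was at 116, 95.1, 142 and 309 CPM in Ctrl IL against 1316, 1289.5 and 2141 CPM in cKO IL (log2 fold change 3.38 ± 0.34 SE, limma adjusted p = 0.00350). The highest Ctrl library, of mouse 3551, stayed far below the lowest cKO library. *Cap1* (a cyclase-associated protein that recycles actin monomers; ENSMUSG00000028656) stood at 89.4, 91.4, 112 and 93.8 CPM in Ctrl IL against 742, 807 and 760.4 CPM in cKO IL. The replicates were tight around a 7.97 times higher mean in cKO (log2 fold change 3.00 ± 0.11 SE, limma adjusted p = 7.46e-06).

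*Ch25h*, *Ak1* and *Fcgr1* were higher as well. *Ch25h*, the enzyme that makes 25-hydroxycholesterol, was at 135, 131, 130.0 and 192 CPM in Ctrl IL against 412, 396 and 349.6 CPM in cKO IL (log2 fold change 1.41 ± 0.17 SE, limma adjusted p = 0.00961). *Ak1*, an adenylate kinase that interconverts adenine nucleotides, was at 66.2, 76.3, 59.6 and 79.5 CPM in Ctrl IL against 236, 175 and 253 CPM in cKO IL (log2 fold change 1.64 ± 0.18 SE, limma adjusted p = 0.00533). *Fcgr1*, the high-affinity receptor for IgG, was at 259, 241, 221 and 231 CPM in Ctrl IL against 662, 657 and 513 CPM in cKO IL (log2 fold change 1.36 ± 0.19 SE, limma adjusted p = 0.0171). None of the 3 overlapped between genotypes. Without the IL library of cKO mouse 784, *Gatm*, *Ak1*, *Ch25h* and *Fcgr1* were no longer called (limma adjusted p = 0.0557, 0.0700, 0.10 and 0.134), and the latter pair was also lost without that of cKO mouse 791 (limma adjusted p = 0.105 and 0.130), *Fcgr1* also without that of Ctrl mouse 3551 (limma adjusted p = 0.0754). *Ch25h* was not called either with the mouse as a random effect over the 14 libraries (limma adjusted p = 0.157) or with all 14 libraries in 1 fit (limma adjusted p = 0.184).

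On the lower side, *Fcrls*, a scavenger and Fc receptor-like protein of the microglial surface (ENSMUSG00000015852), lost the most transcript. It was at 3091, 3391, 3372 and 3631 CPM in Ctrl IL against 419.7, 358 and 488 CPM in cKO IL. *Olfml3*, a secreted protein enriched in microglia, was at 2035, 2342, 2096 and 2284 CPM in Ctrl IL against 1116, 1007 and 845 CPM in cKO IL (log2 fold change -1.14 ± 0.18 SE, limma adjusted p = 0.0356). *Ctsh*, the lysosomal cysteine protease cathepsin H (ENSMUSG00000032359), was at 1192, 1109, 1051 and 1050.4 CPM in Ctrl IL against 362, 321 and 344 CPM in cKO IL (log2 fold change -1.67 ± 0.15 SE, limma adjusted p = 0.00201). The genotypes were apart in each of these genes. *Olfml3* kept its call only without the library of Ctrl mouse 3546, and in the other 6 fits that each left out a library its limma adjusted p was between 0.0898 and 0.176.

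*Ldhb*, the heart-type subunit of lactate dehydrogenase (ENSMUSG00000030246), was at 468, 564, 421 and 511 CPM in Ctrl IL against 24.7, 20.9 and 26.0 CPM in cKO IL. This is a 20.6 times lower mean (log2 fold change -4.29 ± 0.17 SE, limma adjusted p = 1.38e-05). *F11r*, the junctional adhesion molecule A, was at 358, 377, 439 and 370.2 CPM in Ctrl IL against 201, 166 and 177 CPM in cKO IL (log2 fold change -1.07 ± 0.12 SE, limma adjusted p = 0.00533). *Txnip*, an inhibitor of thioredoxin and of glucose uptake, was at 437, 455, 616 and 407 CPM in Ctrl IL against 261, 237 and 239 CPM in cKO IL (log2 fold change -0.93 ± 0.14 SE, limma adjusted p = 0.0281). The range of *Ldhb* in cKO was narrow, and no library of either genotype came near the other in any of these genes. *F11r* was not called without cKO mouse 791 (limma adjusted p = 0.0592), and *Txnip* was called only without Ctrl mouse 3546 or 3551, with limma adjusted p values up to 0.157 without another mouse. *Tpm3* and *Capza1*, the remaining genes of this size, and their copies *Tpm3-rs7* and *Gm3608*, which went the other way, are described with the copies.

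**Figure D2:**
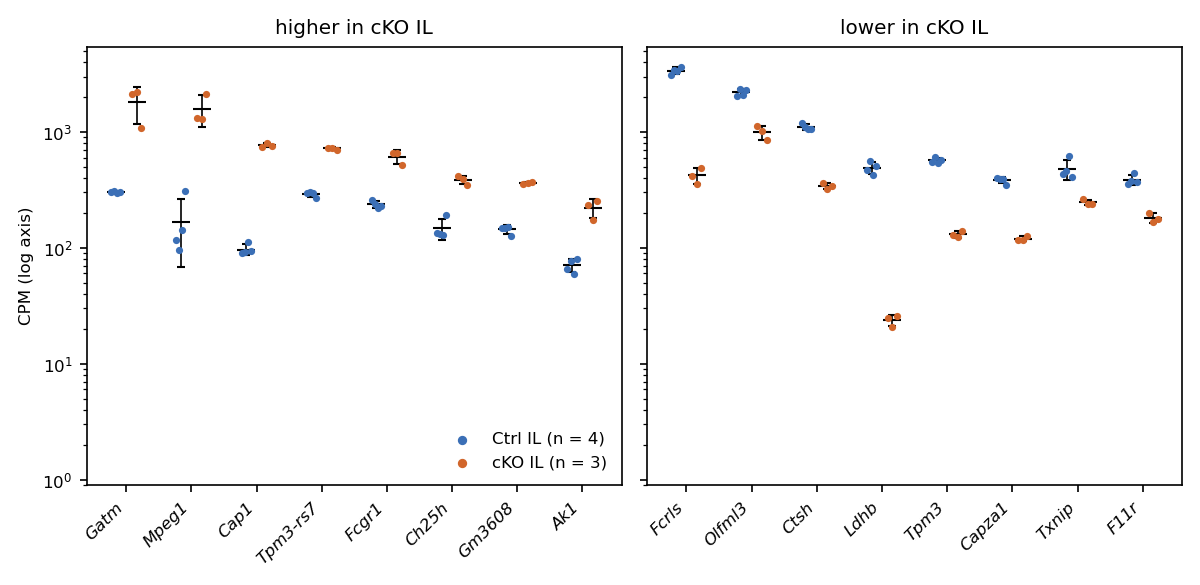
CPM (log axis) of the 8 higher and 8 lower called genes with the largest difference of the group means, with 1 point per IL library and bars for the mean ± SD of 4 Ctrl and 3 cKO libraries. No gene overlaps between genotypes, and *Ldhb* at 23.8 ± 2.62 CPM in cKO is the lowest.

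Among genes of lower abundance the largest rise was that of *Ifi202b*, a DNA-binding protein of the interferon-inducible HIN-200 family (ENSMUSG00000026535, chromosome 1 of GRCm38 from 173962568 to 173982744). It was listed at 0, 0, 0.164 and 0 CPM in Ctrl IL and stood at 40.5, 41.0 and 36.4 CPM in cKO IL. *Hspb3*, a small heat shock protein known from muscle, was at 0, 0.0569, 0 and 0.117 CPM in Ctrl IL against 12.9, 11.9 and 10.7 CPM in cKO IL. *Hebp1*, a heme-binding protein, was at 6.69, 6.03, 5.48 and 14.2 CPM in Ctrl IL against 80.9, 84.5 and 113 CPM in cKO IL (log2 fold change 3.46 ± 0.28 SE, limma adjusted p = 0.00105). The first pair was thus near 0 in each Ctrl library and clearly measured in each cKO library. *Tmem87a*, a membrane protein of the Golgi, was at 2.84, 3.9, 5.40 and 2.99 CPM in Ctrl IL against 45.1, 45.9 and 32.0 CPM in cKO IL (log2 fold change 3.16 ± 0.23 SE, limma adjusted p = 0.000468). *Apold1*, an early response gene best known from endothelium, was at 8.65, 9.44, 7.53 and 10.6 CPM in Ctrl IL against 66.5, 92.6 and 67.1 CPM in cKO IL (log2 fold change 2.93 ± 0.21 SE, limma adjusted p = 0.000435). *Gnb4*, a beta subunit of heterotrimeric G proteins, was at 1.96, 1.93, 2.21 and 2.60 CPM in Ctrl IL against 19.4, 21.2 and 21.2 CPM in cKO IL (log2 fold change 2.78 ± 0.16 SE, limma adjusted p = 9.80e-05). These genes were called in every fit that left out a library and tested them. *Ifi202b* and *Hspb3* were below the filter on low values in the 3 fits without a cKO library. They passed the filter only through the cKO libraries, so that they had to differ wherever they were tested. Their calls, also in these fits, are therefore no support.

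*Cxcl11*, a ligand of the chemokine receptor CXCR3 that is annotated as a polymorphic pseudogene in this strain's genome, varied most within cKO. It was at 0.768, 0.731, 0.164 and 0.556 CPM in Ctrl IL against 23.3, 52.6 and 6.60 CPM in cKO IL (log2 fold change 3.80 ± 0.59 SE, limma adjusted p = 0.0329). Only the libraries of Ctrl mouse 3546 and cKO mouse 3592 could be left out with the call kept, and the limma adjusted p reached 0.214 without cKO mouse 784. The remaining genes with the largest rises, *Gm8210*, *Gm13841*, *Gm28438*, *Hist1h2al* and *Gm45315*, were pseudogenes with near-identical parents.

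Among the largest falls was the noncoding *AI506816*, at 75.1, 93.5, 88.6 and 122 CPM in Ctrl IL against 1.27, 0.862 and 1.53 CPM in cKO IL (log2 fold change -5.41 ± 0.18 SE, limma adjusted p = 6.63e-06). *Mcub*, the subunit that dampens the mitochondrial calcium uniporter, was at 26.3, 26.1, 18.2 and 17.6 CPM in Ctrl IL against 2.63, 3.76 and 5.24 CPM in cKO IL (log2 fold change -2.24 ± 0.28 SE, limma adjusted p = 0.0103). *Liph*, a lipase that forms lysophosphatidic acid, was at 15.7, 12.6, 42.8 and 23.7 CPM in Ctrl IL against 5.33, 3.4 and 6.20 CPM in cKO IL (log2 fold change -1.92 ± 0.32 SE, limma adjusted p = 0.0449). Each was lower in all 3 cKO libraries than in all 4 Ctrl libraries. *Mcub* was not called without cKO mouse 784 or 791 (limma adjusted p = 0.0839 and 0.0889), and *Liph* was called only without Ctrl mouse 3545 or 3546 (limma adjusted p up to 0.260 without another mouse). On the deposited CPM its limma adjusted p was 0.110. *Fmr1nb* on chromosome X, at 13.9, 9.87, 4.50 and 13.8 CPM in Ctrl IL against 0.176, 1.49 and 0.10 CPM in cKO IL, was called only without Ctrl mouse 3546 among the fits that left out a library (limma adjusted p up to 0.245).

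On chromosome 10, *Raet1d* and *H60b*, which encode ligands of the natural killer cell receptor NKG2D, were lower and higher in cKO. *Raet1d* was at 9.38, 8.57, 4.83 and 5.81 CPM in Ctrl IL against 0.732, 1.2 and 0.979 CPM in cKO IL (log2 fold change -2.01 ± 0.30 SE, limma adjusted p = 0.0247). *H60b*, which passed the filter on low values only through the cKO libraries, so that it had to differ, was at 0.0611, 0.0284, 0 and 0.0292 CPM in Ctrl IL against 2.52, 1.12 and 1.53 CPM in cKO IL (log2 fold change 1.37 ± 0.18 SE, limma adjusted p = 0.0133). *Gm26740*, an antisense gene that overlaps *H60b*, was at 4.01, 3.95, 7.45 and 6.99 CPM in Ctrl IL against 0, 0 and 0.133 CPM in cKO IL. *Raet1d* and *Gm26740* were thus lower and *H60b* higher, without overlap of the genotypes. The counting is not stated to use strand, so reads of *H60b* and of its antisense partner cannot be told apart. *Raet1d* kept its call only without Ctrl mouse 3546 (limma adjusted p up to 0.184 without another mouse), and *H60b*, which was below the filter without a cKO mouse, lost it without Ctrl mouse 3545 or 3551 (limma adjusted p = 0.0544 and 0.0646).

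Of 27 lists of genes by function, 17 held no called gene. Over all genes tested 0.658% were called, so that 0 calls in lists this short is near that share. It is no result about a list, here or below. Counts at an unadjusted p below 0.05 stand beside 5.09% higher and 3.83% lower over all genes tested. The interferon-stimulated genes, which myeloid cells switch on downstream of the type I interferon receptor, formed a list without a call. Of 35 tested, 0 were called by limma, but 21 had an unadjusted p below 0.05, all of them higher in cKO, and the median log2 fold change was 0.88, beside 0.01 over all genes tested. In the CL hemispheres, 0 of 35 were called, 0 had an unadjusted p below 0.05 with a higher level in cKO, 1 had one with a lower level, and the median was 0.15. The sum of the list ranged from 1365 to 2032 CPM in Ctrl IL and from 1961 to 3692 CPM in cKO IL, so that the genotypes overlapped.

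Single genes of the list show how the mice differed. *Stat2*, a transcription factor of the interferon receptor, was at 42.1, 37.0, 53.3 and 48.5 CPM in Ctrl IL against 79.0, 98.4 and 71.5 CPM in cKO IL (log2 fold change 0.88 ± 0.16 SE, limma adjusted p = 0.0564). *Irf7*, which amplifies interferon production, was at 74.7, 51.9, 62.5 and 46.7 CPM in Ctrl IL against 162, 206 and 93.7 CPM in cKO IL (log2 fold change 1.33 ± 0.31 SE, limma adjusted p = 0.152). *Cxcl10*, a ligand of CXCR3, was at 175, 207, 149 and 249 CPM in Ctrl IL against 421, 523 and 184 CPM in cKO IL (log2 fold change 0.85 ± 0.38 SE, limma adjusted p = 0.570). *Stat2* and *Irf7* did not overlap between genotypes, whereas the *Cxcl10* value of cKO mouse 3592 lay within the Ctrl range. Against the Ctrl mean, the median difference over the 35 genes was 1.0 in cKO mouse 784, 1.25 in cKO mouse 791 and 0.37 in cKO mouse 3592 on the log2 scale, and it was between -0.32 and 0.43 in the Ctrl mice, with the highest of them, mouse 3541, above cKO mouse 3592. In cKO mouse 784, 31 of the 35 genes were above every Ctrl library, in cKO mouse 791 32 were, and in cKO mouse 3592 14 were. Over all genes tested, 14.8%, 13.6% and 15.8% were above every Ctrl library in these mice, in the same order. The number with an unadjusted p below 0.05 fell to 7 without cKO mouse 791, 11 without cKO mouse 784 and 13 without Ctrl mouse 3551. The calls that an alternative added were those of *Stat2* without cKO mouse 3592 (limma adjusted p = 0.0483), without Ctrl mouse 3546 (limma adjusted p = 0.0209) and with the mouse as a random effect (limma adjusted p = 0.0422), of *Irf7* without cKO mouse 3592 (limma adjusted p = 0.0483) and of *Isg15* without Ctrl mouse 3546 (limma adjusted p = 0.0336).

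**Figure D3:**
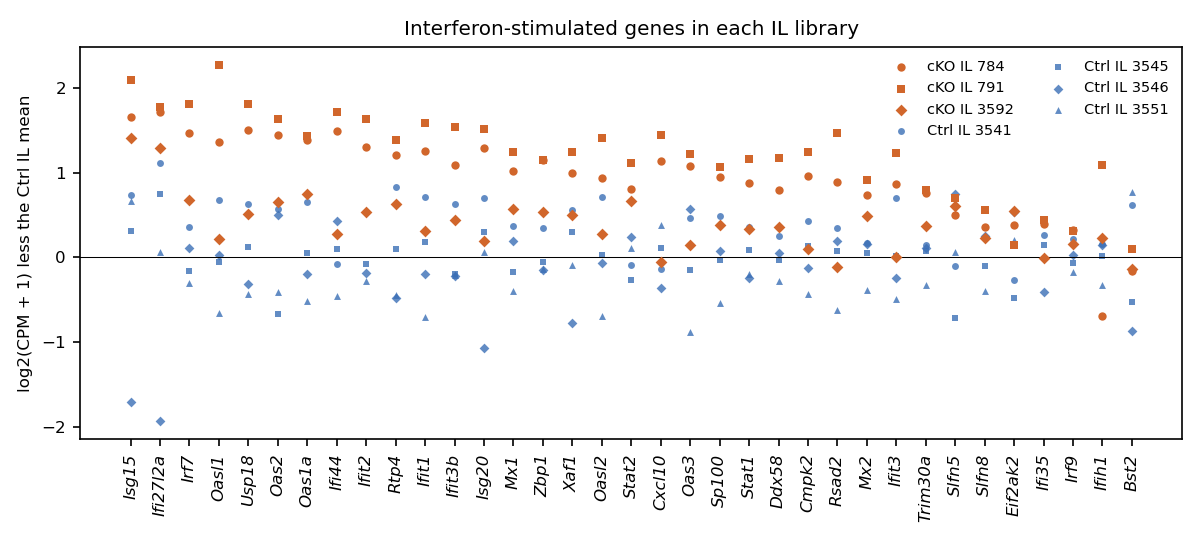
Level of the 35 interferon-stimulated genes in each IL library as log2(CPM + 1) less the mean of the 4 Ctrl IL libraries (y axis), with genes ordered by their log2 fold change (x axis). Mice 784 and 791 lie above the Ctrl libraries in most genes, with medians of 1.0 and 1.25, and mouse 3592 lies near the Ctrl libraries, with a median of 0.37.

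The HIN-200 family, a cluster of interferon-inducible DNA sensors on chromosome 1, changed in both directions. Of 13 tested, *Ifi202b* and *Ifi214* were higher and *Ifi206*, *Ifi207* and *Mndal* lower, and 7 had an unadjusted p below 0.05 with a lower level in cKO. *Ifi207* was at 112, 91.6, 109 and 79.9 CPM in Ctrl IL against 38.4, 36.5 and 42.3 CPM in cKO IL (log2 fold change -1.28 ± 0.16 SE, limma adjusted p = 0.0116). *Mndal* was at 9.15, 7.62, 8.27 and 5.08 CPM in Ctrl IL against 1.55, 1.82 and 1.28 CPM in cKO IL, and *Ifi214* was at 0.900, 0.521, 0 and 0.266 CPM in Ctrl IL against 5.09, 5.99 and 3.50 CPM in cKO IL. The median of the family was -0.71, beside 0.88 for the interferon-stimulated list, in which 0 genes were called. *Ifi204* and *Ifi211* were not called, with log2 fold changes of -1.41 and -1.42 (limma adjusted p = 0.0984 and 0.111), though the former was called on the deposited CPM without further scaling (limma adjusted p = 0.0433) and the latter with the mouse as a random effect (limma adjusted p = 0.0343). Members are alike in sequence. *Mndal* matches *Ifi204* at 95.7% identity over 776 bases and *Ifi214* matches *Ifi209* at 96.9% over 1946 bases, so that reads can be exchanged among them. Without a single library, *Ifi206*, *Ifi207*, *Ifi214* and *Mndal* lost their calls in 4, 3, 4 and 5 of the fits, each of them without cKO mouse 784 (limma adjusted p = 0.139, 0.0892, 0.128 and 0.149) and without cKO mouse 791 (limma adjusted p = 0.0504, 0.0963, 0.120 and 0.116).

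Most chemokines and cytokines were not called, beside 0.658% called over all genes tested. Of the 21 chemokine ligands listed, which leave out *Cxcl11* (called, above), 0 were called and 5 (*Ccl2*, *Ccl5*, *Ccl7*, *Ccl22* and *Cxcl13*) had an unadjusted p below 0.05, all higher, with a list median of 0.54. Their sum ranged from 1891 to 4763 CPM in Ctrl IL and from 4343 to 7138 CPM in cKO IL. *Cxcl13*, a chemokine that attracts B cells, was called with the mouse as a random effect (limma adjusted p = 0.00859), with all 14 libraries in 1 fit (limma adjusted p = 0.0351) and with pseudocounts of 0.5 and 0.1 (limma adjusted p = 0.0453 and 0.0380), and *Ccl7* with all 14 libraries in 1 fit (limma adjusted p = 0.0391). Of 19 cytokines, 0 were called, 7 had an unadjusted p below 0.05 with a higher level and 1 (*Il16*) with a lower level, and the median was 0.52. The sum of the cytokines ranged from 3325 to 4352 CPM in Ctrl IL and from 4211 to 6843 CPM in cKO IL, so that both sums overlapped between genotypes. *Tnf* was at 592, 771, 656 and 927 CPM in Ctrl IL against 1988, 2052 and 1309.9 CPM in cKO IL (log2 fold change 1.28 ± 0.24 SE, limma adjusted p = 0.0708). Every cKO library was above every Ctrl library in *Tnf*, as also in *Il12b*, at 5.75, 7.59, 3.11 and 6.75 CPM in Ctrl IL against 38.7, 85.1 and 8.80 CPM in cKO IL (log2 fold change 2.31 ± 0.69 SE, limma adjusted p = 0.283). *Ifnb1*, the gene of interferon beta, was at 2.25, 1.65, 0.736 and 2.25 CPM in Ctrl IL against 11.7, 6.69 and 3.47 CPM in cKO IL (log2 fold change 1.52 ± 0.40 SE, limma adjusted p = 0.203). In these cytokines, too, cKO mouse 3592 was the lowest of the 3 cKO mice. *Tnf* was called on the deposited CPM without further scaling (limma adjusted p = 0.0476) and *Ifnb1* with the mouse as a random effect (limma adjusted p = 0.0384).

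Of 35 genes for Toll-like receptors and NF-kB feedback, *Wdfy1* was the only one called, with 12 higher and 2 lower at an unadjusted p below 0.05 and a median of 0.14. *Wdfy1*, an adaptor in the signalling of TLR3 and TLR4 (ENSMUSG00000073643), was at 14.6, 12.1, 21.4 and 16.6 CPM in Ctrl IL against 92.2, 84.8 and 106 CPM in cKO IL. Its mean was 5.83 times higher in cKO (log2 fold change 2.51 ± 0.14 SE, limma adjusted p = 8.31e-05). It kept its call under all 19 alternatives. *Tlr3* was called as higher with the mouse as a random effect (log2 fold change 0.69, limma adjusted p = 0.0358). *Tlr2* was at 1042, 1262, 1079 and 1205 CPM in Ctrl IL against 2046, 2569.6 and 1489.6 CPM in cKO IL (log2 fold change 0.81 ± 0.24 SE, limma adjusted p = 0.266). Among 15 inflammasome genes, 12 costimulatory genes, 20 complement genes and 19 genes of MHC class I and 10 of MHC class II presentation, 0 were called. In the fit with a random effect of mouse, the costimulatory genes *Cd40* and *Cd276* (limma adjusted p = 0.0405 and 0.0183) and *Naip6*, a sensor of the inflammasome (limma adjusted p = 0.0255), were called as higher, *Cd276* also with all 14 libraries in 1 fit (limma adjusted p = 0.0279).

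Of 26 homeostatic microglial genes, *Fcrls* and *Olfml3* were lower and the remaining 24 were not called, among them *P2ry12* (log2 fold change 0.16), *Tmem119* (-0.10), *Cx3cr1* (-0.18) and *Sall1* (0.20). The median of the list was 0.08, and its sum ranged from 55063 to 68440 CPM in Ctrl IL and from 55629 to 67181 CPM in cKO IL. The loss of *Fcrls* and *Olfml3* was therefore not shared by the list. Of 23 genes of disease-associated microglia 0 were called, 5 were higher and 3 lower at an unadjusted p below 0.05, and the median was 0.13. Of 17 Fc gamma receptors, Fc receptor-like genes and signalling genes, *Fcgr1* was higher and *Fcrls* and *Fcrl1* were lower. *Fcrl1*, best known from B cells, was at 24.8, 25.5, 35.7 and 24 CPM in Ctrl IL against 4.21, 3.11 and 5.04 CPM in cKO IL (log2 fold change -2.47 ± 0.17 SE, limma adjusted p = 0.000435). B cell markers summed to 326 to 356 CPM in Ctrl IL and 327 to 499 CPM in cKO IL, most of it *Ighm*, and their part in the difference of *Fcrl1* was not tested.

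Calls in the metabolic lists stand beside 0.658% called over all genes tested, a share at which most lists this short hold none. These lists were chosen with earlier results of these data known. Of 18 lactate genes only *Ldhb* was called, while *Ldha*, the partner subunit, was at 979, 1177, 783 and 753 CPM in Ctrl IL against 967, 1251 and 833 CPM in cKO IL (log2 fold change 0.16 ± 0.27 SE). Of 27 genes of glycolysis and the hypoxia response and of 8 NADPH oxidase genes tested, 0 were called, with medians of -0.01 and -0.04. In the breakdown of branched-chain amino acids, *Bcat1* and *Bckdhb*, which catalyse its opening steps, were higher and *Mccc1*, of the leucine branch, was lower among 21 genes. *Bckdhb* was at 3.27, 4.04, 4.50 and 5.0 CPM in Ctrl IL against 12.0, 12.2 and 13.6 CPM in cKO IL (log2 fold change 1.41 ± 0.16 SE, limma adjusted p = 0.00595). *Bcat1* was at 0.427, 0.455, 1.06 and 0.936 CPM in Ctrl IL against 3.01, 4.44 and 2.63 CPM in cKO IL, and *Mccc1* was at 24.5, 23.5, 31.3 and 28.6 CPM in Ctrl IL against 15.7, 14.9 and 17.3 CPM in cKO IL. Genotypes were apart in the 3 genes. *Bckdhb*, *Bcat1* and *Mccc1* were not called without cKO mouse 784 (limma adjusted p = 0.0721, 0.168 and 0.245) or 791 (limma adjusted p = 0.0788, 0.142 and 0.239), and *Bcat1* and *Mccc1* were also lost without Ctrl mouse 3541 (limma adjusted p = 0.111 and 0.126), 3545 (limma adjusted p = 0.112 and 0.108) or 3551 (limma adjusted p = 0.0863 and 0.109), *Mccc1* also without cKO mouse 3592 (limma adjusted p = 0.108).

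Of 22 genes for pH regulation and acid-base transport, 0 were called by limma and 2 had an unadjusted p below 0.05, both lower in cKO, with a list median of -0.17. *Slc9a9*, the sodium-hydrogen exchanger of recycling endosomes, was at 96.6, 107, 149 and 117 CPM in Ctrl IL against 57.6, 70.6 and 81.8 CPM in cKO IL (log2 fold change -0.72 ± 0.13 SE, limma adjusted p = 0.0601). The genotypes did not overlap, and the gene was called with the mouse as a random effect (limma adjusted p = 0.00595) and with all 14 libraries in 1 fit (limma adjusted p = 0.00670). *Hvcn1*, the voltage-gated proton channel of phagocytes, was at 219, 207, 268 and 267 CPM in Ctrl IL against 276, 301 and 253 CPM in cKO IL (log2 fold change 0.22 ± 0.12 SE, limma adjusted p = 0.690). Of 41 lysosomal genes, *Ctsh* alone was called, and the median of the list was -0.01.

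Genes that respond to tissue dissociation and stress were measured beside these. Of 25 immediate early genes, *Dusp2*, a phosphatase of MAP kinases, was called, at 106, 105, 117 and 118 CPM in Ctrl IL against 217, 191 and 205 CPM in cKO IL (log2 fold change 0.88 ± 0.10 SE, limma adjusted p = 0.00835), and 7 had an unadjusted p below 0.05, all higher. The call of *Dusp2* was lost without cKO mouse 784 or 791 (limma adjusted p = 0.0919 and 0.0825). Of 18 chaperones, *Hspb3* was called. The inducible *Hspa1b* was at 757, 608, 398 and 289 CPM in Ctrl IL against 131, 66.9 and 128 CPM in cKO IL (log2 fold change -2.18 ± 0.40 SE, limma adjusted p = 0.0696). *Hspa1a*, its near copy, was at 897, 741, 436 and 407 CPM in Ctrl IL against 245, 183 and 242 CPM in cKO IL (log2 fold change -1.39, limma adjusted p = 0.184). Both chaperones were lower in every cKO library than in every Ctrl library, without passing the test. The sum of the immediate early genes ranged from 25108 to 30671 CPM in Ctrl IL and from 28717 to 33482 CPM in cKO IL, and *Egr3*, an early growth response factor, was called with the mouse as a random effect (limma adjusted p = 0.0467). *Hspa1b* was called with the mouse as a random effect (limma adjusted p = 0.0303) and on the deposited CPM (limma adjusted p = 0.0497). The part of the dissociation in these differences was not tested. *Txnip* was the gene called among 21 of the p53 and integrated stress responses, and 0 were called among 33 cell cycle, 28 sterol and lipid, 18 trophic factor, 12 sphingosine-1-phosphate and 13 gamma-secretase and APP processing genes. *Psen2*, a catalytic subunit of gamma-secretase, was called as lower with the mouse as a random effect (log2 fold change -0.81, limma adjusted p = 0.0430).

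Markers of the other cells that the sort could hold were compared in 12 lists, and 0 genes of these lists were called. Monocyte markers summed to 1494 to 1756 CPM in Ctrl IL against 1927 to 2161 CPM in cKO IL, and most of this sum was *Nr4a1*, an immediate early gene, with means of 1037 CPM in Ctrl IL against 1580 CPM in cKO IL, while *Ly6c2* was at 20.9, 13.7, 6.98 and 5.0 CPM in Ctrl IL against 21.4, 19.7 and 13.6 CPM in cKO IL and *Ccr2* at 73.8 and 60.4 CPM by the means. Border macrophage markers summed to 542 to 889 CPM in Ctrl IL against 371 to 731 CPM in cKO IL, and neutrophil markers to 920 to 1636 CPM and 942 to 1186 CPM. Both overlapped between genotypes. T and NK cell markers summed to 7.41 to 12.6 CPM in Ctrl IL against 8.82 to 20.5 CPM in cKO IL, with *Cd3e* at 0.11 and 0.31 CPM, and neuronal markers to 3.39 to 21.8 CPM and 4.65 to 6.07 CPM. In sorted bulk samples, fewer cells of a type and less RNA per cell cannot be told apart. Red blood cell markers ranged from 15.1 to 180 CPM in Ctrl IL and from 66.5 to 394 CPM in cKO IL, and among the cKO mice they had the same order as the interferon-stimulated genes, with 253 CPM in mouse 784, 394 CPM in mouse 791 and 66.5 CPM in mouse 3592. Their part in that result was not tested.

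By position, called genes were most frequent on chromosome 3, where 20 of 851 genes tested were called (2.35%), 5 higher and 15 lower. Chromosome 1 followed with 15 of 1081 (1.39%), chromosome 18 with 6 of 440 (1.36%) and chromosome 19 with 6 of 581 (1.03%), beside 0.658% of all genes, whereas 0 of 1281 were called on chromosome 11. Called genes that lie with at least 2 others within 3 Mb formed 9 neighbourhoods. These held 41 of the 111 called genes (36.9%) and 275 of the 16873 genes tested (1.63%). The groups were formed from the calls, so the shares are a description. Of the 41 genes, 15 lost the call in none of the fits that left out a library and tested them, whereas 22 lost it without cKO mouse 784 (limma adjusted p = 0.0557 to 0.297) and 23 without cKO mouse 791 (limma adjusted p = 0.0504 to 0.239). Leaving out Ctrl mouse 3541, 3545 or 3551 or cKO mouse 3592 ended 16, 19, 17 and 14 of these calls, and leaving out Ctrl mouse 3546 ended 0.

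**Figure D4:**
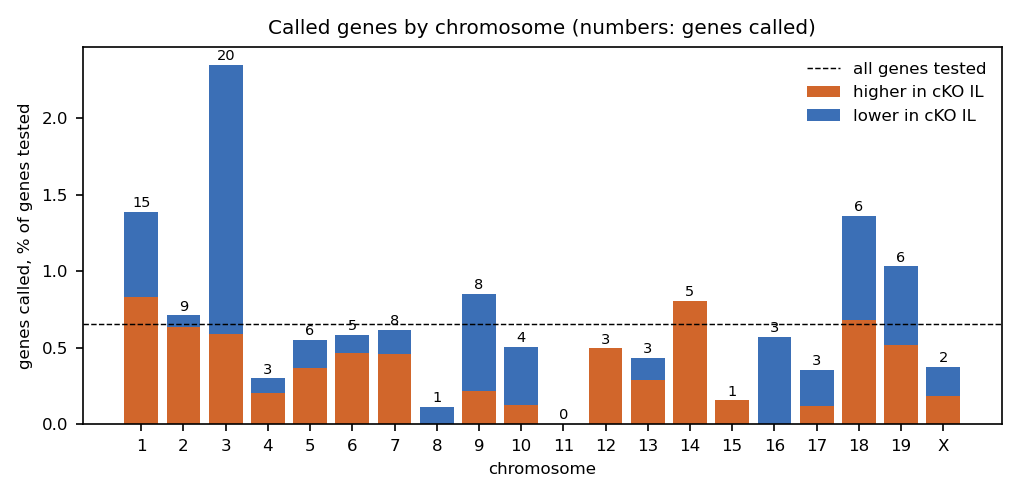
Genes called between cKO IL and Ctrl IL as a percentage of the genes tested on each chromosome (bars, split into higher and lower in cKO), with the number called above each bar and the share of all genes tested as a dashed line. Chromosome 3 has the tallest bar, with 20 called genes of which 15 were lower.

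The largest neighbourhood spans chromosome 1 of GRCm38 from 171411313 to 174044411, where 10 of 49 genes tested were called. It holds *Usf1* (a transcription factor of E-boxes), *F11r*, *Slamf1* (an immune cell adhesion receptor), *Kcnj10* (a potassium channel), the HIN-200 genes *Ifi206*, *Ifi214*, *Ifi207*, *Mndal* and *Ifi202b*, and *Olfr433*. *Usf1* was at 37.9, 37.8, 54.1 and 47.8 CPM in Ctrl IL against 17.4, 12.7 and 15.7 CPM in cKO IL (log2 fold change -1.46 ± 0.13 SE, limma adjusted p = 0.00195). It kept its call under all 19 alternatives. Members went both ways within this stretch, 4 higher and 6 lower. On chromosome 3, *Fcrls*, *Fcrl1*, *Prcc*, *5830417I10Rik*, *1500004A13Rik* and *Tpm3* lie from 87250758 to 90100902 and were lower in cKO (6 of 87 tested). The pseudogene *5830417I10Rik* was at 13.4, 9.66, 38.7 and 29.3 CPM in Ctrl IL against 1.10, 1.88 and 3.37 CPM in cKO IL, and it matches *Gon4l* at 98.7% identity over 2170 bases. *1500004A13Rik*, a noncoding transcript that overlaps it, fell from 5.80 ± 1.93 to 0.871 ± 0.179 CPM. Both lost their calls without cKO mouse 784 (limma adjusted p = 0.168 and 0.0573) or 791 (limma adjusted p = 0.157 and 0.0615), and the pseudogene also without Ctrl mouse 3541 or 3551 (limma adjusted p = 0.0612 and 0.0955).

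Further along chromosome 3, *Hist2h2be*, *Gm42743*, *Fcgr1*, *Txnip* and *Zfp697* lie from 96221119 to 98753812 (5 of 44) and *Sycp1*, *Syt6*, *Olfml3* and *Capza1* from 102818499 to 104864505 (4 of 34). *Syt6*, a synaptotagmin, was at 3.24, 5.97, 4.09 and 5.70 CPM in Ctrl IL against 21.2, 26.4 and 18.0 CPM in cKO IL, beside *Olfml3*, which was lower. Its call was lost without cKO mouse 784 or 791 (limma adjusted p = 0.0965 and 0.0963). *Sycp1*, a meiotic gene, was listed at 0 in the 4 Ctrl IL libraries and at 1.35, 1.02 and 2.03 CPM in cKO IL. Neighbours thus differed in direction. On chromosome 6, *Apold1*, *Hebp1* and *Eps8* (an actin regulator) lie from 134981718 to 137654876 and were higher (3 of 23), and on chromosome 12 *Ppp1r13b*, *Tdrd9* and *Clba1* from 111828457 to 112816252 were higher (3 of 14). On chromosome 7, in the cluster of paired immunoglobulin-like receptors from 3788883 to 4282645, *Gm15925*, *Gm15448* and *Gm15931* were higher and *Lilra5* was lower (4 of 11). *H60b*, *Gm26740* and *Raet1d* form the group on chromosome 10 (3 of 5), and *Gm3411*, *Gm6356* and *Gm3696* that on chromosome 14 (3 of 8). The 3 genes on chromosome 14 passed the filter on low values only through the cKO libraries, so that they had to differ. The same holds for *Ifi202b*, *Gm42743*, *Sycp1*, *Tdrd9*, *Gm15925* and *H60b* in the other neighbourhoods. Neither the calls of these genes nor the fits that kept them are support. The members on chromosome 7 other than *Lilra5* and those on chromosome 14 belong to families with transcripts over 95% identical, so that their single values are uncertain.

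Near-identical copies elsewhere in the genome were sought with blastn for the longest transcript of each gene. A copy at 95% identity or more was found for 30 of the 111 called genes (27.0%) and for 2730 of 16842 genes tested with a transcript (16.2%). The windows below show, for 3 called genes and their copies, bases that part them within close matches. Each pair is a 60-base stretch in a single coding exon of the gene with the matching stretch of its copy. The copies *Gm3608* and *Gm5514* are pseudogenes. All are read 5′ to 3′ from the GENCODE M21 transcripts of GRCm38, and capitals mark the bases that differ. The position shown has the most differences among stretches that still match closely, since stretches with more differences were not kept.
Capza1 (chr3:104834117-104834176, minus strand, exon 7): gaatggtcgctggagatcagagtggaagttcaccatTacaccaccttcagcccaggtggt
Gm3608 (chr1:105456489-105456548, plus strand): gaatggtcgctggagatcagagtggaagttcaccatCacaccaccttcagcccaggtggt
Tpm3 (chr3:90079799-90079858, plus strand, exon 1): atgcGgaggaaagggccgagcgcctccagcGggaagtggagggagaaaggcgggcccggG
Tpm3-rs7 (chr14:113314743-113314802, plus strand): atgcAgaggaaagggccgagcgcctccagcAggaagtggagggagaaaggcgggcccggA
Ldhb (chr6:142490545-142490604, minus strand, exon 8): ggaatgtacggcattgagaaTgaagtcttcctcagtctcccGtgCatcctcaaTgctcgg
Gm5514 (chr19:21938217-21938276, plus strand): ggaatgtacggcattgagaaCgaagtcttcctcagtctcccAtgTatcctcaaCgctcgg
*Capza1* and *Gm3608* differ at 1 of these 60 bases, *Tpm3* and *Tpm3-rs7* at 3, and *Ldhb* and *Gm5514* at 4. A read that covers none of the differing bases cannot be given to either locus from its sequence.

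The sums of a gene and its copies were compared over the libraries, in a design of 4 against 3 where the smallest exact p is 0.0571, so that no sum could pass 0.05 and a larger p does not show a stable sum. *Capza1*, a subunit of the actin capping protein, was at 402, 391, 392 and 348 CPM in Ctrl IL against 116, 117 and 127 CPM in cKO IL. The pseudogene *Gm3608* was at 148, 149, 152 and 127 CPM in Ctrl IL against 354, 362 and 367 CPM in cKO IL. The share of *Capza1* in their sum went from 72.7% to 24.9%, whereas the sum was 527 ± 35.6 CPM in the Ctrl IL libraries (SD, n = 4) against 481 ± 11.6 CPM in cKO IL (SD, n = 3; two-sided exact permutation test over 35 splits, p = 0.171, 0.245 adjusted over 10 sums). *Tpm3*, a tropomyosin of the actin cytoskeleton, at 554, 604, 538 and 569 CPM in Ctrl IL against 129, 123 and 139 CPM in cKO IL, behaved in the same way with *Tpm3-rs7*, at 296, 300.3, 295 and 269 CPM in Ctrl IL against 729.9, 728 and 702 CPM in cKO IL. Its share went from 66.1% to 15.3% of a sum of 856 ± 33.0 and 850 ± 8.72 CPM. The genes of both actin regulators thus fell while their copies rose, and for *Tpm3* the means of the sum differed by less than the SD of the Ctrl libraries. The calls of both copies were lost without cKO mouse 784 (limma adjusted p = 0.0501 for *Gm3608* and 0.0546 for *Tpm3-rs7*), and that of *Tpm3-rs7* also without cKO mouse 791 (limma adjusted p = 0.0504). *Hist1h2al* was listed at 0 in the 4 Ctrl IL libraries and stood at 8.50, 7.21 and 9.69 CPM in cKO IL, beside *Hist2h2aa1* at 58.9, 59.8, 14.4 and 55.3 CPM in Ctrl IL against 39.5, 42.3 and 33.6 CPM in cKO IL. *Gm20634* matches it as closely and was left out of the sum. That sum was 47.1 ± 21.9 and 46.9 ± 3.26 CPM (exact permutation test, p = 0.914), but the like means rest on Ctrl mouse 3546 at 14.4 CPM, since the sums of the other Ctrl mice, 58.9, 59.8 and 55.3 CPM, were above those of the cKO mice, 48.0, 49.5 and 43.3 CPM.

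*Ldhb* and its pseudogene *Gm5514* fell together. *Gm5514* was at 104, 129.6, 93.6 and 118 CPM in Ctrl IL against 13.6, 11.3 and 16.4 CPM in cKO IL, and the sum went from 602 ± 76.9 to 37.6 ± 5.14 CPM, 16 times lower (exact permutation test, p = 0.0571, and 0.0952 adjusted over 10 sums). The sums of *Gnpda1* with *Gm8615* (207 and 106 CPM), *Cyb5r4* with *Gm11868* (79.0 and 50.3 CPM), *Morf4l1* with *Morf4l1-ps1* (277 and 203 CPM) and *Hmgb1* with *Gm45315* (277 and 188 CPM) were also lower in every cKO library, with the same p. *Gm45315* has 4 further matches, among them *Gm15387* at 118 and 86.2 CPM and *Gm21596* at 135 and 133 CPM, which were left out of that sum. *Gm28438*, a nuclear copy of the mitochondrial gene *mt-Nd3*, was at 0.951, 1.15, 9.18e-05 and 0.0507 CPM in Ctrl IL against 24.6, 16 and 25.2 CPM in cKO IL, while *mt-Nd3* was at 12.0, 14.1, 2.29 and 18.2 CPM in Ctrl IL against 4.27, 4.72 and 4.59 CPM in cKO IL. Their sum was higher in every cKO library, at 12.2 ± 6.95 and 26.5 ± 5.02 CPM (exact permutation test, p = 0.0571).

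The gene of the ribosomal protein *Rpl29* and its copies divided the mice within a genotype. *Rpl29* was at 69.2, 78.1, 11.2 and 71.7 CPM in Ctrl IL against 1.42, 1.49 and 35 CPM in cKO IL. *Gm8210* was at 0 CPM or at 3.49e-06 CPM in Ctrl IL against 24.7, 25.6 and 9.04 CPM in cKO IL, and *Gm13841* was at 3.23e-06, 0.284, 0 and 0.289 CPM in Ctrl IL against 21.2, 17.1 and 13.9 CPM in cKO IL. *Rpl29* was low in cKO mice 784 and 791 and in Ctrl mouse 3546, and intermediate in cKO mouse 3592. Over the 5 genes of the family the sum was 74.2 ± 39.6 CPM in Ctrl IL against 53.1 ± 12.4 CPM in cKO IL (exact permutation test, p = 0.457), and the lowest value, 15.4 CPM, was that of Ctrl mouse 3546, beside 89.6 to 101 CPM in the other Ctrl mice.

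**Figure D5:**
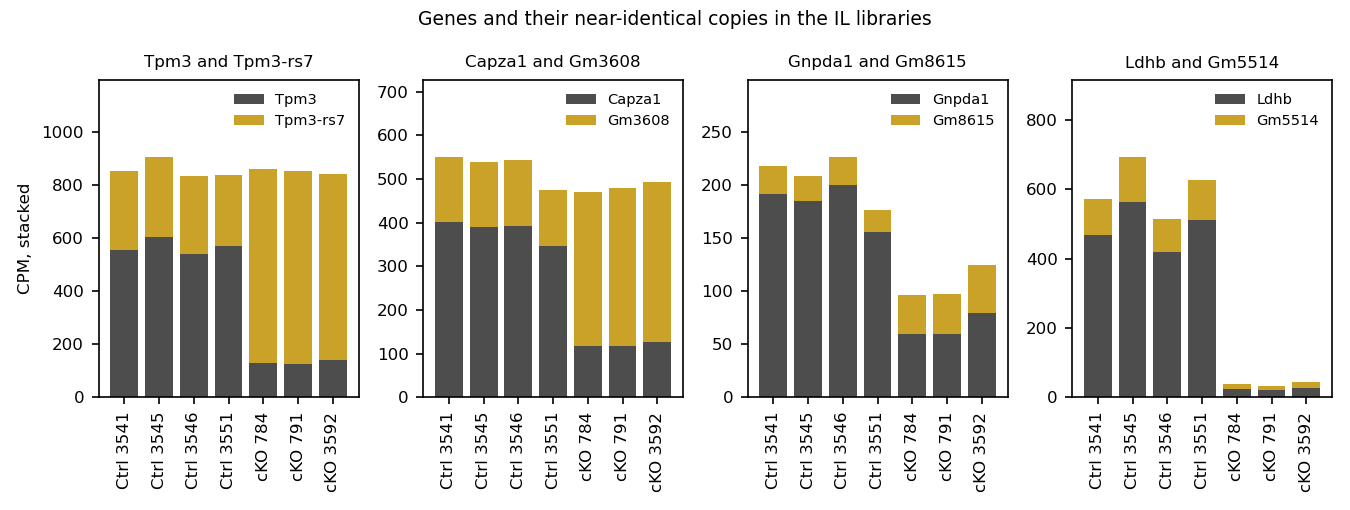
Stacked CPM of 4 called genes and their near-identical copies in each IL library (4 Ctrl, then 3 cKO). The totals of *Tpm3* with *Tpm3-rs7* are 856 ± 33.0 CPM in Ctrl and 850 ± 8.72 CPM in cKO, and those of *Capza1* with *Gm3608* are 527 ± 35.6 and 481 ± 11.6 CPM, while the split between the copies changes, and the totals of *Gnpda1* with *Gm8615* and of *Ldhb* with *Gm5514* are lower in cKO.

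In the CL hemispheres, which came for the most part from the same mice, 145 of 16570 genes (0.875%) differed by genotype, with 77 higher in cKO and 68 lower. Of the 111 genes called in IL, 108 were tested in CL, where 67 were called in the same direction, 0 in the opposite direction and 41 were not called. Since the mice are shared, these counts are no independent evidence. *Cap1* stood at 85.7, 86.0, 76.8 and 76.9 CPM in Ctrl CL and 641, 765 and 634 CPM in cKO CL, a log2 fold change of 3.03 beside 3.00 in IL. *Ldhb* had log2 fold changes of -4.31 in CL and -4.29 in IL, *Fcrls* -3.08 and -2.99, *Gatm* 2.54 and 2.52, and *Wdfy1* 2.33 and 2.51. These differences between genotypes were thus of like size in both hemispheres. *Cxcl11*, *Penk* and *Ralgds* were among the genes not called in CL, of which the latter pair was chosen after its values were seen. *Penk*, the precursor of enkephalins, was at 1.34, 3.70, 2.54 and 2.25 CPM in Ctrl IL against 22.5, 11.5 and 10.2 CPM in cKO IL (log2 fold change 2.16, limma adjusted p = 0.0320), and at 5.51, 3.54, 0.635 and 1.06 CPM in Ctrl CL and 0.637, 1.27 and 4.65 CPM in cKO CL (log2 fold change -0.23). *Ralgds*, an exchange factor for Ral GTPases, had log2 fold changes of 1.60 in IL and 0.58 in CL. *Penk* was not called without Ctrl mouse 3541 or 3551 or cKO mouse 784 or 791 (limma adjusted p = 0.0996, 0.112, 0.138 and 0.157) nor with the mouse as a random effect (limma adjusted p = 0.134) or all 14 libraries in 1 fit (limma adjusted p = 0.0784), whereas *Ralgds* was called under all 19 alternatives.

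Whether the genotype difference itself differed between hemispheres was tested as an interaction over the 14 libraries. Of 18476 genes, 0 (0%) were called by limma and 479 had an unadjusted p below 0.05, and 3 were called with the mouse as a random effect. Among the 111 genes the smallest adjusted p was 0.0709. These genes were chosen for their IL difference, which is part of the interaction, so that larger interactions are favoured among them. The genotype difference of *Ifi202b* was 2.02 log2 units larger in IL than in CL. It was listed at 0 in the 4 Ctrl CL libraries and stood at 6.53, 13.6 and 8.83 CPM in cKO CL, below the 36.4 to 41.0 CPM of cKO IL. *Gm6356*, listed at 0 in all 8 Ctrl libraries, was measured in cKO IL at 2.31, 4.91 and 2.30 CPM and in cKO CL at 14.5, 15.9 and 13.3 CPM. *Gm3411*, of the same family, had 0.936, 2.78 and 3.03 CPM in cKO IL but 16, 16.3 and 11.4 CPM in cKO CL. These 3 were the genes called with the mouse as a random effect, with interactions of 1.94, -1.81 and -2.01 log2 units (limma adjusted p = 0.00745, 0.00781 and 0.0123). For *Penk* the interaction was 2.39 log2 units, with an unadjusted p of 0.00555 and a limma adjusted p of 1.0, and for *Apold1* it was 1.23 (limma adjusted p = 1.0).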

How the data were processed

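CD11b+ cells from 14 hemispheres were profiled by RNA-seq, and the 7 IL libraries carried the main comparison. Reads were mapped by the authors with STAR, to mm10 (GRCm38), in Partek Flow (Partek 8.0 per the labels) and deposited values for 33939 genes under the name raw counts. Each library sums to 1e+06, so these deposited values are CPM. Between 77.8% and 82.8% of the values below 100 reads are whole reads within 0.03, which gave the depths but allowed no count test. The authors' own comparison tables (fold changes, p-values and group means) were not used, other than to pair 26 identifiers with names. For 33802 genes names and positions came from GENCODE M21.

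Libraries were scaled by an unweighted trimmed mean of M-values (30% of M and 5% of A trimmed). Genes entered at 0.292 CPM (IL) or 0.353 CPM (CL), the CPM of 10 reads at median depth, in at least 3 libraries. limma 3.58.1 in R 4.3.3 with a variance trend was fitted to log2(CPM + 1). On simulated data over 16501 genes the IL comparison recovered 75% of 100 genes changed by a fold of 2 and 100% of 100 changed by a fold of 4, with 5 false calls. The simulation drew whole counts with the same assumed dispersion of 0.04 for every gene, and left the genes of lowest level unchanged. The deposited values are partly not whole reads and their spread was not matched. These shares therefore check the procedure and do not give the recovery or the false calls in the data. The 27 function and 12 marker lists, like the members, were chosen with earlier results of these data known. Named genes were up to 15 per direction with the largest change, no overlap and a mean of at least 5 CPM, up to 8 per direction with the largest change in CPM, called or defining list members, neighbourhoods within 3 Mb, and copies. The level of the targeted gene is not reported here. Mouse numbers pair the hemispheres of 6 mice by the labels, with a consensus correlation of 0.438 between hemispheres of a mouse. The genotypes share no mouse. Copies were found with blastn 2.17.0 (at least 95% identity over 200 bases and 50% of the shorter transcript). Alternatives were other scalings, pseudocounts, filters, thresholds, robust moderation, all 14 libraries in 1 fit, a random effect of mouse and leaving out each library, and a filter of 2 libraries was added after seeing the data. Other steps ran in Python 3.11.15, with matplotlib 3.10.9 for drawing and pandas 2.3.3, numpy 2.4.6 and scipy 1.17.1 for tables and tests.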

Additional observations from a re-analysis of the deposited data

Results flagged for a closer look

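Of 80 groups of 4 Ctrl IL values examined, 10 had a library that stood apart by Dixon's criterion, which chance meets in about 1 in 20 groups. The IL library of Ctrl mouse 3546 was the smallest, with 12.2 M reads (M, 1e+06). The same library was apart in *Ifi202b* (0.164 CPM, with 0 CPM in the others), *Fcrl1* (35.7 CPM), the sum of the branched-chain amino acid genes (902 CPM) and the sum of the neuronal markers (21.8 CPM, with at most 6.29 CPM in the other Ctrl mice). Ctrl mouse 3551 was apart in *Hebp1* (14.2 CPM), *Ch25h* (192 CPM) and *Gm3608* (127 CPM). Ctrl mouse 3545 was apart in the sum of the inflammatory cytokines (4352 CPM), and Ctrl mouse 3541 in *Gm8210* (3.49e-06 CPM, with 0 CPM in the others). In each gene named here the outlying Ctrl value lay outside the range of the cKO libraries.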

How the results depend on the processing

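No named gene turned its direction under any alternative. The count of 111 IL genes became 67 without a filter on low values and 185 with the mouse as a random effect, and it was between 98 and 156 under the other alternatives that kept every library, except for 77 (34 higher) with 10 reads in every library. Without a filter, the calls of *Olfml3*, *Txnip*, *Cxcl11*, *Liph*, *Fmr1nb*, *Raet1d*, *Bcat1*, *Penk*, *Ifi206*, *Ifi214*, *Mndal*, *Kcnj10* and *Slamf1* were among those lost (limma adjusted p = 0.0590 to 0.143). On the deposited CPM those lost included *Mccc1*, *Liph*, *Slamf1*, *Kcnj10*, *Prcc*, *Eps8*, *Clba1*, *5830417I10Rik*, *Ppp1r13b*, *Lilra5*, *Gm15931* and *Morf4l1* (limma adjusted p = 0.0517 to 0.137). Leaving out a library gave 24 to 280 genes, and 15 of the 111 genes, all higher in cKO, were below the filter of 3 libraries in such a fit. With a filter of 2 libraries, added after seeing the data, leaving out cKO mouse 784, 791 or 3592 gave 46, 48 and 112 genes. Under all 19 alternatives 18 genes were called, 8 higher and 10 lower, and in each of the 7 fits that left out a library 21 were.

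The CL count of 145 became 87 without a filter, 86 with 10 reads in every library, 261 with all 14 libraries in 1 fit, and 52 to 163 when a library was left out. The replicate block, with the mouse as a random effect, gave 185 genes in IL, 102 of the 111 among them, 293 in CL and 3 for the interaction, which was 0 or 1 when a library was left out. A fixed block of the mouse could not be fitted for the genotype contrast, since cKO and Ctrl mice differ. The cause of these shifts was not tested. Depth limits genes near 0.292 CPM, and intervals were not given, since a part of the values are not whole reads.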

Other observations

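Outside the called genes, 7 genes had a log2 fold change of at least 2.5 in either direction in IL and were not called, because mice of the same genotype differed. These genes were chosen for their values, and the values are given as a description. *Spint1*, a membrane inhibitor of serine proteases (chromosome 2 from 119237362 to 119249527), was at 188, 205, 202 and 238 CPM in Ctrl IL, at 0.644 and 0.679 CPM in cKO mice 784 and 791, and at 97.7 CPM in cKO mouse 3592. *Gm13394*, a processed pseudogene also on chromosome 2, was at 0.685 to 2.35 CPM in Ctrl IL, at 414 and 489.6 CPM in cKO mice 784 and 791, and at 0.579 CPM in cKO mouse 3592. *Ccdc85a* was at 0.199 to 1.08 CPM in Ctrl IL and at 33.2, 13.5 and 0.734 CPM in the cKO mice in the same order.

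*Gatm* (chromosome 2 from 122594467 to 122611303) and *Tmem87a* (chromosome 2 from 120355312 to 120404113), which were called, were also lowest in cKO mouse 3592 among the cKO mice, at 1079 and 32.0 CPM. The differences were not limited to the cKO mice. *Colec12*, a scavenger receptor, was at 264, 195 and 243 CPM in 3 Ctrl mice, at 13 CPM in Ctrl mouse 3551 and at 8.22, 12.1 and 21.8 CPM in the cKO mice. *Rps3a3*, a processed pseudogene, was at 2.67 to 3.36 CPM in Ctrl IL and at 80.6, 2.96 and 39.2 CPM in cKO mice 784, 791 and 3592.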
